A study of Mus musculus with 79 samples.

Results

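H3K27me3 was compared with input in the hypothalamus of 3 wild-type mice, in order to describe which promoters, gene families and broader regions carry the Polycomb mark in this adult tissue. The comparison takes 6 of the 79 samples of the series, namely the H3K27me3 libraries and the input libraries of +/+ animals 1 to 3. Each H3K27me3 library was paired with the input of the same number, taken to be the same animal. The animals were about 14 weeks old, of the strain C57BL/6Babr, and carried both intact Dnmt3a alleles. The study obtained its genotypes by crossing Dnmt3a fl/+ mothers with an oocyte-specific Zp3-Cre to fathers with the D329A allele and took samples from several litters, and 2.5% of a whole hypothalamus entered each native immunoprecipitation. For comparison, H3K27me3 and input libraries were also used from 3 Δ/D329A mice of about 14 weeks, whose only functional Dnmt3a allele carries D329A. A whole hypothalamus holds many types of neurons, glia and vessel cells. A mark in some of the cells and a weaker mark in every cell can therefore not be told apart, and neither can fewer cells of a type and less RNA per cell.

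The H3K27me3 libraries held 15891089, 16654129 and 20169668 uniquely mapped reads, and the inputs held 14708936, 21579335 and 23890359. The median autosomal tile of 2 kb held 10, 10 and 13 H3K27me3 reads and 12, 19 and 21 input reads, and values are given as reads per tile per 1000000 mapped reads (RPM). RNA levels, as log2 reads per kb of transcript and 1000000 reads (log2 RPKM), were taken from 5 other +/+ animals of about 14 weeks. Those libraries held Xist, the RNA of the inactive X chromosome of females, at a log2 RPKM of between 3.8 and 4.59. The input of the ChIP animals covered the X chromosome at 0.423 to 0.429 times the autosomal mean, and the study describes its ChIP animals as male. RNA and chromatin therefore came from animals of different sex.

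H3K27me3 is placed by Polycomb repressive complex 2, whose catalytic subunit is EZH2 or EZH1, and it is read by the CBX proteins of complex 1. The mark is known for covering the promoters of developmental regulators in cells that do not use them. Where H3K4me3, a mark of promoters open to transcription, lies on the same stretch, the promoter is called bivalent. In mammals Polycomb is known to favour CpG-rich DNA that is not transcribed.

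Promoters were taken from 1500 bp before to 500 bp after the gene start, and a promoter is called covered here where H3K27me3 exceeded input by at least 1 on the log2(RPM + 0.1) scale at an adjusted p under 0.05 (limma). The sequence around the start (250 bases before to 50 after, RefSeq on GRCm38.p6, shown along the gene) is given for 6 genes that span the range of the data. Sox14, a transcription factor of hypothalamic and midbrain neurons, and Tcf21, a factor of mesoderm, had promoters among those with the largest excess of H3K27me3. Npy and Oxt, which encode the peptides neuropeptide Y and oxytocin, were covered although their RNA was abundant. Hcrt, the gene of the arousal peptide orexin, and Btbd6, an adaptor for protein degradation, lay below input. Capitals mark the dinucleotide CG, which reads the same on both strands.
Sox14: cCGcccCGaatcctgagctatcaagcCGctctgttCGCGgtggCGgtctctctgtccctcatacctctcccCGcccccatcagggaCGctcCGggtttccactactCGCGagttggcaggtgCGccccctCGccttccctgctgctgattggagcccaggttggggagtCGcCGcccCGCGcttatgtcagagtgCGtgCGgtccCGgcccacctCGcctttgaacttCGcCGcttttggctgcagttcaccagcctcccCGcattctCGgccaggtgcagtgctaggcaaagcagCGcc
Tcf21: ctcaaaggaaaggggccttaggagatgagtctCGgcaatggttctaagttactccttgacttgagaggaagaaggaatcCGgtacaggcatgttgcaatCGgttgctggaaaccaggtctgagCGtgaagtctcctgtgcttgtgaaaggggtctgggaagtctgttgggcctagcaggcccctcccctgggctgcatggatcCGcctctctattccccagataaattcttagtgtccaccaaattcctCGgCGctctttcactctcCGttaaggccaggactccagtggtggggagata
Npy: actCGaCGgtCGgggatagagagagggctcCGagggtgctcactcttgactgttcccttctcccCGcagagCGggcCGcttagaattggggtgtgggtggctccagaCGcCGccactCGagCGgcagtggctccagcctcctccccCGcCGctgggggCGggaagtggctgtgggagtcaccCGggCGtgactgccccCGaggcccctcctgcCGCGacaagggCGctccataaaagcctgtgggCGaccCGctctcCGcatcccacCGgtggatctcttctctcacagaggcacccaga
Oxt: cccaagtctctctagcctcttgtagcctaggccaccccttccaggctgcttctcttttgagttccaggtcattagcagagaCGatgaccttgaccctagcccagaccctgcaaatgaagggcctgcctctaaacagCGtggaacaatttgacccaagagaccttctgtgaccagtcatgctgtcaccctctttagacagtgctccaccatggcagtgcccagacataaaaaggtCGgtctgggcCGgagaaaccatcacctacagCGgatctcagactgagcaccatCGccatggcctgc
Hcrt: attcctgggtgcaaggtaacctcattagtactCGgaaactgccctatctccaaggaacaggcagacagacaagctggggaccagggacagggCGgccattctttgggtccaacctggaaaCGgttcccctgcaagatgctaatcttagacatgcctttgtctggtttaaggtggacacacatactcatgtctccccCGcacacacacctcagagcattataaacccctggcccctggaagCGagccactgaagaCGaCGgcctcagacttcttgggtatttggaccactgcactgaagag
Btbd6: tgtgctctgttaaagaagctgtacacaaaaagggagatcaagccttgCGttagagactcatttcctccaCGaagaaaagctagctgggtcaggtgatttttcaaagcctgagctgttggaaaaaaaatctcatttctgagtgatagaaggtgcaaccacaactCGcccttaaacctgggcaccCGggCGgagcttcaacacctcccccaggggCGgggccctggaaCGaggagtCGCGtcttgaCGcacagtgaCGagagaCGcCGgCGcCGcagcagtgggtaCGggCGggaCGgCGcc
These stretches lie at chr9:99876121-99876420 (minus strand), chr10:22820094-22820393 (minus), chr6:49822460-49822759 (plus), chr2:130575919-130576218 (plus), chr11:100762882-100763181 (minus) and chr12:112976232-112976531 (plus) and hold 26, 8, 24, 6, 7 and 19 CG dinucleotides. Among 12609 promoters whose RefSeq start lay within 100 bp of the deposited one, the median was 14 CG over all and likewise 14 over 1508 covered ones. At least 10 CG stood in 58.7% of all, in 63.3% of the covered ones, in 88.4% of those below input and in 29.4% of those in neither class. The letters TATAAA, read along the gene, were found in 9.48% of the covered stretches and 8.97% of all, and the Hcrt stretch is one of those below input that hold them.

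Of 24782 promoters tested on chromosomes 1 to 19 and X, 3046 (12.3%) were covered and 9817 (39.6%) lay at least 1 below input. The number below input fell to 3801 with a pseudocount of 0.5 RPM and to 2859 with a filter at a mean of 0.5 RPM. The median covered promoter stood at 2.78 RPM of H3K27me3 against 0.796 RPM of input, a difference of 1.66 on the log2 scale, and the largest difference was 3.49. Of the covered promoters, 1059 reached a difference of 2 and 120 reached 3. In 3032 of them the 3 H3K27me3 values lay above the 3 input values without overlap, which was so for 23.7% of all promoters tested. The difference was at least 1 in each of the 3 animals in 2189 covered promoters, and the median SD over the 3 animals was 0.31. The threshold passed through a continuous range, with 156 covered promoters within 0.05 above it and 204 promoters within 0.05 below it. H3K27me3 lay below input by 0.33 in the median autosomal tile. With each library centred on that tile, the median of all promoters moved from -0.43 to -0.10 and the calls to 4553 covered and 8338 below, and TMM factors in edgeR gave 5239 covered and 9121 below.

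Protein-coding genes and long intergenic RNAs were covered at nearly the same share, 2426 of 18668 and 130 of 1015. On the X chromosome 66 of 807 promoters (8.18%) were covered, against 2980 of 23975 on the autosomes. The X chromosome is present once in these males, so that fewer reads stand behind each value there. Covered promoters at Zp3 and Srcrb4d on chromosome 5 and at Mt1 on chromosome 8 rested on animals 1 and 2, whose input was itself raised there. At Zp3 the H3K27me3 values were 55.3, 55.4 and 0.892 RPM and the input values 13.9, 13 and 0.837 RPM.

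The promoters with the largest excess of H3K27me3, leaving out symbols of the Gm and Rik kind, belonged mostly to transcription factors of mesoderm, endoderm and the body axis. After Tcf21 came H60b, a ligand of natural killer cells, Fndc3c1, Hoxa11 of the limb, Hlx of gut mesenchyme, Sox14, Foxa2 of endoderm and floor plate, Wt1 of kidney and gonad, Tbx2 of heart and limb, and Hoxc6 of the trunk. Tcf21 stood at 8.68, 8.77 and 8.33 RPM of H3K27me3 in animals 1 to 3 and at 0.510, 0.880 and 0.670 RPM of input, a log2 difference of 3.49 (SE 0.18, adjusted p = 5.6e-36, limma). Sox14 stood at 5.32, 6.57 and 6.87 RPM against 0.442, 0.672 and 0.460 RPM, a difference of 3.36 (SE 0.19). The 10 genes were chosen as the largest differences among covered promoters without overlap. By that choice the lowest H3K27me3 value in each of these genes lay far above the highest input value. Their mean RNA levels lay between -6.54 log2 RPKM at Wt1 and -1.36 at Tbx2, so that each was under 1 RPKM. Fndc3c1, which lies on the X chromosome, reached its difference of 3.42 with the lowest levels of the 10, at 3.24, 3.30 and 2.88 RPM against an input of 0.238, 0.232 and 0.146 RPM.

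**Figure D1:**
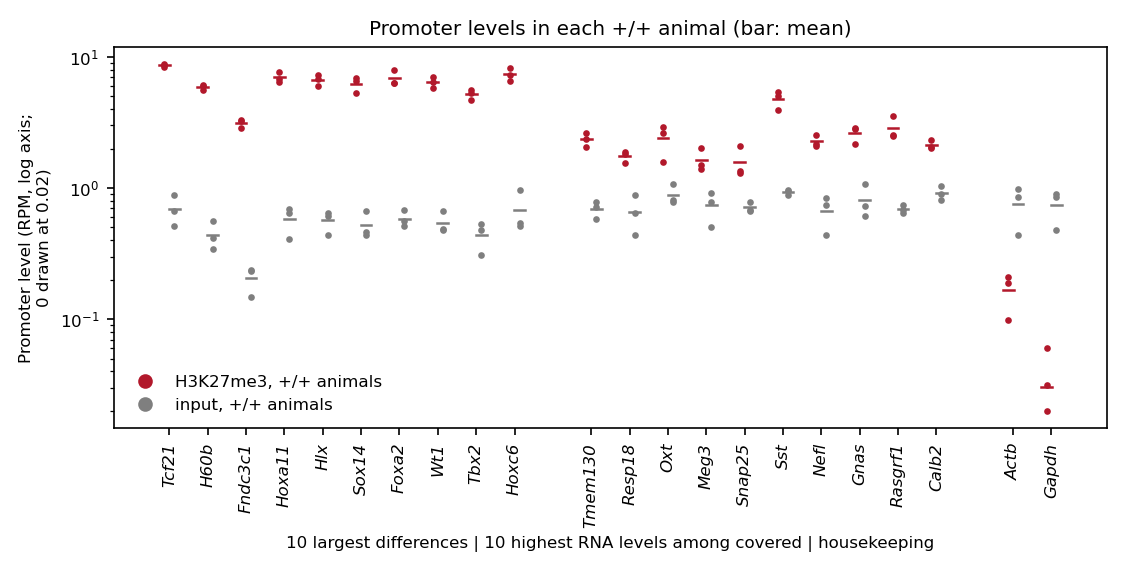
Mean RPM over the promoter tiles in each +/+ animal (vertical axis, logarithmic) for H3K27me3 (red) and input (grey), with bars at the means, for the 10 largest differences without symbols of the Gm and Rik kind, the 10 covered genes of highest RNA level, and Actb and Gapdh. The first 20 genes were chosen among covered promoters without overlap, so that H3K27me3 lies above input in every animal by that choice. In Actb and Gapdh it lay below input.

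Families of patterning transcription factors were covered as a whole or nearly so, against 12.3% of all promoters. All 39 Hox promoters, which encode the factors of position along the body axis, were covered with a median difference of 2.95, against -0.43 over all promoters tested. The same held for all 9 Pax (median 2.97), 12 LIM homeobox (2.70), 6 Iroquois (2.58), 6 sine oculis homeobox (2.96), 6 Dlx (2.69), 5 Zic (2.75) and 5 Tfap2 promoters (3.18). In these families the counts stayed the same under the 6 alternatives tried for the lists (a pseudocount of 0.5 RPM, centring, edgeR, and leaving out each animal), except that 1 LIM homeobox and 1 sine oculis promoter fell out with the larger pseudocount.

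The RNA and the H3K4me3 that accompanied the mark are given by family, and differences between families were not tested. Hox genes had a median RNA level of -5.47 log2 RPKM, each was under 0.1 RPKM, and 4 of the 39 promoters also carried H3K4me3 above input, against 58.4% of all promoters. Tfap2 genes, factors of neural crest and skin, had no promoter with H3K4me3 and a median RNA level of -5.61. Of the other families, 9 of 12 LIM homeobox genes, 5 of 6 Iroquois genes and 4 of 5 Zic genes carried both marks, with median RNA levels of -1.03, -1.26 and -0.94. Zic1, a factor of the dorsal brain, had 4.66, 4.38 and 4.29 RPM of H3K27me3, a difference of 3.08, together with an RNA level of 2.51 ± 0.19 (SD, n = 5).

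Other families were covered in part, against 12.3% of all promoters. Nkx genes of ventral brain and inner organs were covered in 13 of 14, Wnt ligands in 17 of 19, proneural bHLH genes, which start neuron production, in 16 of 20, T-box genes of mesoderm in 11 of 16, Sox genes in 12 of 19 and Forkhead genes in 22 of 43. Among Forkhead genes, lineage factors such as Foxa2 (3.35) and Foxd3 (3.07) stood at one end, and the broadly expressed Foxk2 (-2.17), Foxo3 (-2.25) and Foxj2 (-2.53) at the other. Among Sox genes, Sox14 and Sox17 (2.95) were covered, and Sox4 (-1.76) and Sox12 (-2.15) lay below input. Gata1, a factor of red blood cells, had the lowest Gata value at -0.88, while Gata6 of endoderm and heart stood at 3.0. Members of a list other than its highest and lowest were picked for naming after their values were seen, here and below.

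**Figure D2:**
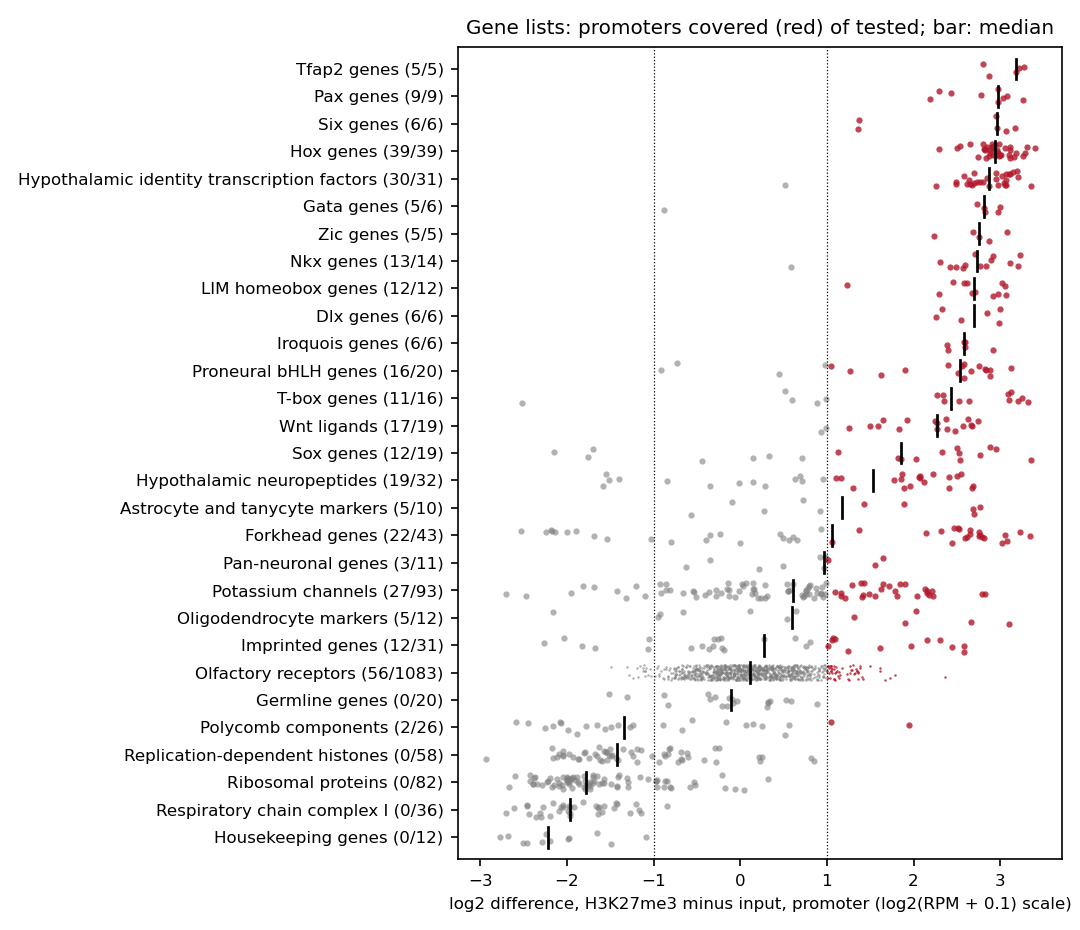
Log2 difference between H3K27me3 and input at the promoter (horizontal axis) for the members of 29 gene lists, with covered promoters in red, others in grey, the median as a bar and the number covered of those tested beside each name. All 39 Hox genes lie between 2.29 and 3.40, neuropeptides and potassium channels spread across 0, and housekeeping genes lie below -1 (dotted lines at -1 and 1).

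The mark also formed broad domains. Of 2311622 autosomal tiles tested, 90472 (3.91%) were covered, and since tiles of 2 kb start every 1 kb, neighbours share reads. Joined where they touched, they made 16294 domains of at least 3 kb, 98.2 Mb in all, with a median width of 4 kb. These numbers depended on the scale, with 41516 tiles and 7036 domains at a pseudocount of 0.5 RPM and 215433 tiles and 37364 domains after centring. At least 10 kb were reached by 1874 domains, 20 kb by 491 and 50 kb by 70. A gene start lay in 46.8% of the domains of 10 kb or more but in 8.40% of the 9303 domains under 5 kb, and 11541 domains (70.8%) lay more than 5 kb from any start in the table.

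The 4 widest domains were the 4 Hox clusters. The Hoxb domain spanned 293 kb (chr11:96130001-96423000), Hoxc 248 kb (chr15:102880001-103128000), Hoxa with Evx1 193 kb (chr6:52142001-52335000) and Hoxd with Evx2 145 kb (chr2:74637001-74782000). They were followed by domains at Pax3 of neural crest and muscle (124 kb, chr1:78105001-78229000), Tbx5 of heart and forelimb (119 kb), Pdx1 and Cdx2 of pancreas and gut (87 kb), Zic4 and Zic1 (87 kb), Pax5 of B cells (86 kb) and Nkx6-1 of pancreas and motor neurons (86 kb). Inside the Hoxa domain the mean tile stood at 6.67, 6.53 and 6.97 RPM of H3K27me3 in the 3 animals, and at 1.68, 1.62 and 1.68 RPM over the 50 tiles on each side. Input was 0.881 ± 0.044 RPM inside and 0.870 ± 0.035 RPM outside (SD, n = 3). The Hoxb domain was the lowest of the 4 at 5.59 ± 0.31 RPM and held Ttll6, a tubulin glutamylase gene outside the cluster, at a promoter difference of 2.0. The mean level inside these 5 domains ranged from 5.59 RPM at Hoxb to 6.72 RPM at Hoxa, and Pax3 stood at 5.89 ± 0.16 RPM.

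**Figure D3:**
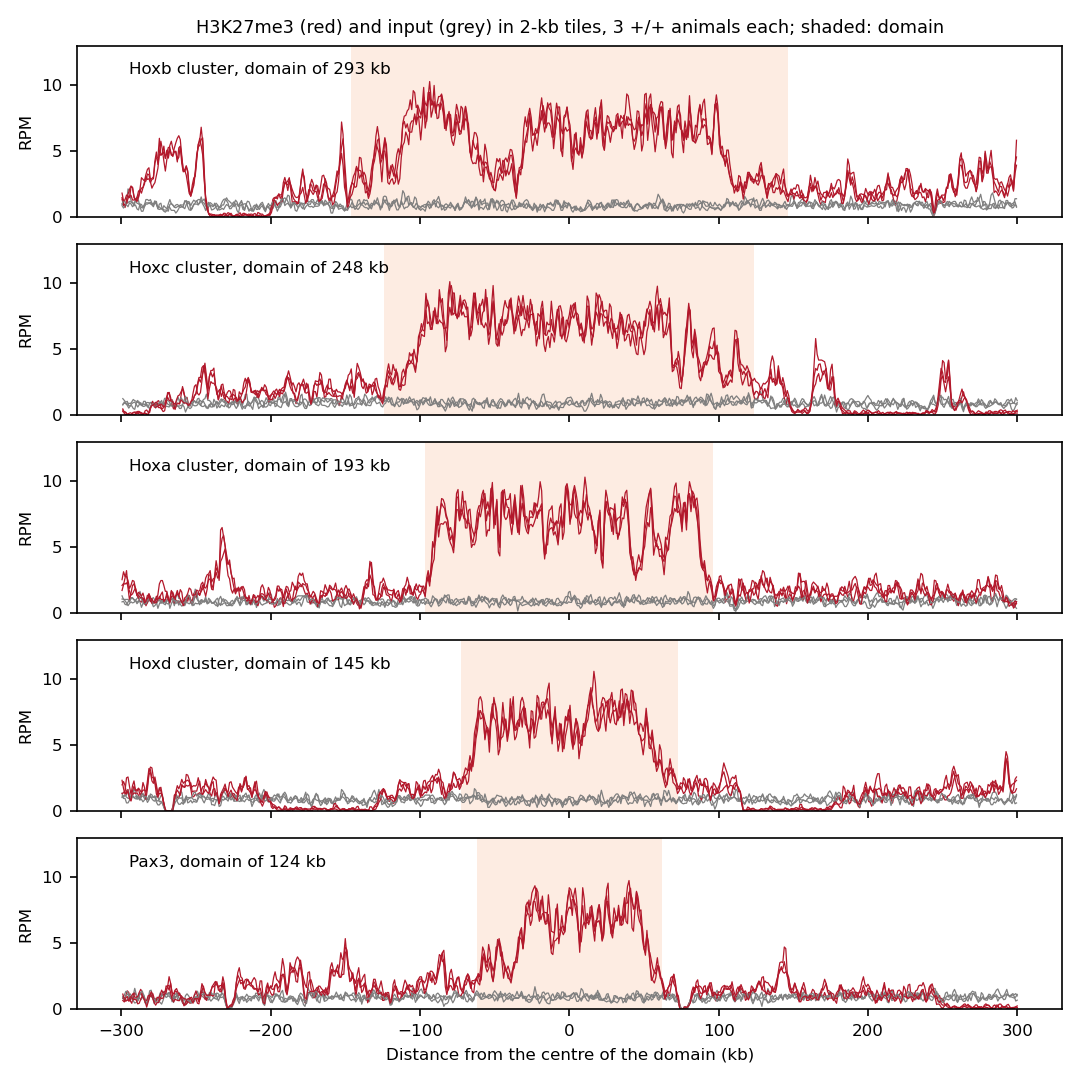
RPM in tiles of 2 kb (vertical axis) against the distance from the domain centre in kb (horizontal axis) for H3K27me3 (red) and input (grey), 1 line per +/+ animal, with the domain shaded, at the 4 Hox clusters and Pax3. Inside the domains the mean H3K27me3 level over the 3 animals is between 5.59 RPM (Hoxb) and 6.72 RPM (Hoxa), while mean input is between 0.854 and 0.911 RPM.

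Among covered promoters, RNA was lowest in the widest domains, though it did not fall steadily with width. The 546 covered genes in domains of 20 kb or more had a median RNA level of -3.69 log2 RPKM, and 11.5% of them reached 1 RPKM. The 1192 in domains of 5 to 10 kb had a median of -2.05, and 26.8% reached 1 RPKM. The medians were -2.71 at 10 to 20 kb and -2.52 at 3 to 5 kb. The 138 in narrower domains or in none had a median of -2.97, and 29.0% reached 1 RPKM. Pax genes lay in domains with a median width of 58 kb and Forkhead genes in domains of 33.5 kb, whereas covered potassium channel genes lay in domains of 10 kb and covered neuropeptide genes in domains of 8 kb.

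Transcription factors that define hypothalamic neurons were covered although part of them had RNA in this tissue. Of 31 such genes, 30 were covered, with a median difference of 2.87, and 25 also carried H3K4me3, against 58.4% of all promoters. Their median RNA level was -0.30 log2 RPKM, and 12 of the 31 were at or above 1 RPKM. Nkx2-1, a factor of the ventral hypothalamus, stood at 7.02, 6.82 and 7.12 RPM of H3K27me3 against 0.510, 0.672 and 0.858 RPM of input, with an H3K4me3 difference of 3.56 and an RNA level of 0.82 ± 0.35 (SD, n = 5). Sim1 and Otp, which are needed for neuroendocrine neurons, had differences of 3.15 and 3.10 with RNA levels of 1.05 and 1.04. Isl1, a factor of arcuate neurons, reached an RNA level of 1.49 at 5.10, 5.94 and 5.16 RPM of H3K27me3. The H3K27me3 values of these 4 genes lay above their input values in every animal, and the differences fell within the range of the Hox genes (2.29 at Hoxc4 to 3.40 at Hoxa11).

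Nr5a1, the factor of the ventromedial nucleus, was the exception among the 31. Its promoter stood at 1.45, 1.92 and 1.98 RPM against 1.26, 1.32 and 1.05 RPM of input, a difference of 0.52 (SE 0.21, adjusted p = 0.02, limma), although a domain of 20 kb lay over its start. The deposited table gives 1 start per gene, which need not be the start used in this tissue.

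Genes of hypothalamic neuropeptides fell on both sides of input. Of 32, 19 were covered (median of the list 1.54), 9 were in neither class and 4 lay below input. Under the alternatives tried for the lists between 17 and 22 were covered. Over all promoters, 12.3% were covered and 39.6% lay below input. Cartpt, the gene of the appetite peptide CART, had the largest difference (2.68), at 2.86, 3.06 and 3.92 RPM against 0.374, 0.556 and 0.356 RPM. Npy stood at 5.51, 5.25 and 6.2 RPM and thyrotropin-releasing hormone (Trh) at 6.17, 5.67 and 7.51 RPM, with RNA levels of 2.94 and 4.33. Sst, the gene of somatostatin, had 5.35, 3.93 and 5.06 RPM against 0.884, 0.973 and 0.942 RPM, a difference of 2.23 (adjusted p = 2.5e-21, limma), with an RNA level of 5.81 ± 0.39 (SD, n = 5). Each of these peptides is made by a small share of hypothalamic neurons, and whether this bears on the mark was not tested. Pomc, the precursor of melanocortins, was covered at 1.87 with an RNA level of 3.76.

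The peptides of largest RNA level differed from each other at their promoters. Oxt was covered at 2.93, 2.64 and 1.59 RPM against 0.782, 1.07 and 0.816 RPM, a difference of 1.3 (SE 0.21, adjusted p = 3.6e-08, limma), with an RNA level of 6.92 ± 0.63 (SD, n = 5). Animal 3 had the lowest of these H3K27me3 values, still above the 3 input values. Its neighbour Avp, the gene of vasopressin, had 2.27, 2.19 and 2.08 RPM against 1.05, 1.18 and 1.0 RPM, a difference of 0.95 that fell short of the threshold of size. Pmch, the gene of melanin-concentrating hormone, had 0.850, 0.691 and 0.644 RPM against 0.408, 0.996 and 0.942 RPM, a difference of -0.02, at an RNA level of 7.96. Hcrt, expressed next to Pmch in the lateral hypothalamus, lay below input at 0.189, 0.180 and 0.248 RPM against 0.816, 0.811 and 0.816 RPM, a difference of -1.59 (adjusted p = 3.8e-06, limma), with an RNA level of 6.19. Agrp (-1.40), the hunger peptide made by the same neurons as Npy, and the releasing hormones Gnrh1 (-1.51) and Ghrh (-1.55) likewise lay below input. The H3K27me3 values of Agrp were 0.157, 0.150 and 0.347 RPM, far under those of Npy in every animal.

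Several genes of neurotransmission were covered. The vesicular GABA transporter Slc32a1 stood at 4.62, 4.65 and 4.88 RPM (difference 2.79) and the GABA-synthesising enzyme Gad2 at 4.47, 5.52 and 4.56 RPM (2.55), and the glutamate transporter Slc17a6 of excitatory neurons had a difference of 1.5. Their RNA levels were 3.54, 5.17 and 5.17, and all 3 carried H3K4me3. Slc32a1 and Gad2 mark inhibitory neurons and Slc17a6 excitatory ones. They were chosen after their values were seen and belong to none of the lists. Among receptor subunits, 3 of 19 GABA-A receptor genes were covered (5 with centring), Gabra5 (1.69) the most, and 4 of 19 ionotropic glutamate receptor genes, with Grin2c (2.20) at the top and Grik5 (-1.11) below input. Over all promoters the share was 12.3%, and neither count was read as differing from it.

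Of 93 potassium channel genes, 27 were covered and 9 lay below input, with a median difference of 0.61. Over all promoters, 12.3% were covered and 39.6% lay below input. The count of covered channel genes moved more than those of the transcription factors, between 22 and 46 under the alternatives tried for the lists. Kcnh3, a voltage-gated channel of the forebrain, had the largest difference at 4.94, 4.80 and 5.35 RPM against 0.442, 0.950 and 0.565 RPM. Kcnk9, which sets the resting potential, was covered at 2.77, 3.57 and 4.17 RPM (2.23) with an RNA level of 3.47, and Kcnj10, the inward rectifier of astrocytes, at 1.63 with an RNA level of 4.57. Genes shared by all neurons were spread around the threshold. Nefl, a neurofilament gene, was covered at 1.65, Syt1 of synaptic vesicles at 1.56 and Snap25 of vesicle fusion at 1.02, and the other 8 of 11 were not, with Syp the lowest at -0.62. The median of these 11 was 0.97, and between 2 and 7 were covered under the alternatives. The count was not read as differing from the share of all promoters.

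Markers of glia and vessels were covered in part, against 12.3% of all promoters. Of 12 oligodendrocyte genes, those of precursors and lineage choice were covered, namely Pdgfra (3.11), Olig2 (2.66), Sox10 (2.02), Olig1 (1.90) and Cspg4 (1.32), and the 7 genes of myelin were not, from Mag at 0.64 to Cnp at -2.16. Pdgfra, the receptor that marks precursors, stood at 5.03, 4.74 and 4.91 RPM against 0.578, 0.394 and 0.481 RPM with an RNA level of 2.91, and Cnp, a myelin enzyme, at 0.189, 0.0901 and 0.0744 RPM against 1.09, 0.626 and 0.900 RPM with an RNA level of 5.18. Of 10 astrocyte and tanycyte genes, 5 were covered, with the regulator Sox9 (2.76) at the top and Aldh1l1 (-0.57), a folate enzyme, at the bottom. Endothelial genes were covered in 4 of 8, namely the factor Sox17 (2.95), the receptors Flt1 (2.38) and Kdr (2.07) and the junction gene Cldn5 (2.20), while the adhesion gene Pecam1 lay below input (-1.05). None of 8 microglial genes was covered in limma or edgeR, though 1 was with centring. Neither count was read as differing from the 12.3% of all promoters. P2ry12 (-1.49), a purine receptor, was 1 of 2 microglial genes below input, against 39.6% of all promoters. At an unadjusted p under 0.05, 1 of the 8 was higher than input. As a check of the tissue label, 24 of 32 hypothalamic neuropeptides, 12 of 31 hypothalamic identity factors and 11 of 11 pan-neuronal genes reached 1 RPKM, as did 45.5% of all genes tested. So did 1 of 9 anterior pituitary, 1 of 7 choroid plexus, 3 of 9 cortical and hippocampal and 4 of 7 thalamic genes. The share was lower for the identity factors than for all genes and than for the thalamic list.

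Genes of other brain regions and organs were covered in part, against 12.3% of all promoters. Of 9 cortical and hippocampal genes 7 were covered, among them Emx1 (2.91), a factor of cortical patterning, and of 7 thalamic genes 6, with Pou4f1 (3.16) at the top and Rora (-0.54) uncovered. Of 12 heart genes, the 7 factors Tbx20 (3.25), Hand2, Nkx2-5, Tbx5, Hand1, Gata6 and Gata4 (2.73) were covered, and the 4 genes of contractile proteins and the hormone gene Nppa were not, with Myh7 at -1.21. Of 17 genes of pancreas and gut endoderm 11 were covered, each encoding a factor. The hormones Ins1 (-0.21), Ins2 (-0.15) and Gcg (-0.37) were not, nor were factors such as Hnf4a and Foxa3. Of 12 muscle genes 6 were covered (3 with a pseudocount of 0.5 RPM, 7 with centring), with Pax3 (2.97) and Myod1 (2.53) at the top, and the myogenic factor Myog had -0.45. Uncovered did not mean expressed, since Ins1 stood at -4.16 and Myog at -4.70 log2 RPKM.

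The count of covered promoters is given for lists of genes from other lineages and receptor families, against 12.3% over all. Differences from that share were not tested. None of 20 germline genes, which are known to be silenced by DNA methylation outside the germline, was covered in limma or edgeR (median -0.11, Dazl the lowest at -1.51), though 1 was with centring and 1 without animal 2, and 3 were higher than input at an unadjusted p under 0.05. Of 12 liver genes 2 were covered, Fgg at 1.15 being the highest, and Alb stood at 0.03. The liver count was 1 without animal 1 and 0 without animal 3 or with a pseudocount of 0.5 RPM. Olfactory receptor genes were covered in 56 of 1083 (5.17%) and vomeronasal receptor genes in 18 of 266, both with medians near 0 (0.11 and 0.14). The olfactory receptor count ranged from 22 to 159 and the vomeronasal count from 5 to 43 under the alternatives tried for the lists, and Olfr63 (2.36), at 5.88, 5.37 and 6.0 RPM, had the largest difference. Pluripotency genes were covered in 9 of 14, among them Lin28a (2.46), Pou5f1 (2.18) and Nanog (1.37), and Dppa4 had -0.73.

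Secreted signals and their receptors were covered in part, against 12.3% of all promoters. Wnt1, a signal of the midbrain border, led the Wnt ligands at 2.74, and Wnt4 (0.94) just missed the threshold, while Frizzled receptors were covered in 5 of 10, from Fzd10 (2.51) to Fzd4 (-1.30). Fgf ligands were covered in 11 of 22, led by Fgf8 (2.73), and Bmp and Gdf ligands in 10 of 21, led by Gdf7 (2.73). Of 47 nuclear receptors, 14 were covered (10 to 19 under the alternatives tried for the lists). Another 14 lay below input, against 39.6% of all promoters. Nr2e1, a factor of neural stem cells, stood highest at 2.63, the progesterone receptor Pgr (1.0) was covered, the oestrogen receptor Esr1 (0.34) was not, and the clock repressor Nr1d2 stood lowest at -2.10.

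Brakes of the cell cycle were covered at Cdkn2b (2.60), Cdkn2a (2.48) and Cdkn1c (1.06) of 7 genes, against 12.3% of all promoters. Cdkn2b and Cdkn2a share a domain of 61 kb. Imprinted genes were covered in 12 of 31 (7 with a pseudocount of 0.5 RPM, 14 with centring), against the same 12.3%. Ascl2 stood at 2.59 and Grb10 at 2.44, and Zrsr1 stood lowest at -2.27. Grb10, a growth regulator, had 5.85, 6.33 and 6.57 RPM of H3K27me3 and no H3K4me3 at the deposited start, with an RNA level of 3.83. Of the 14 immediate early genes, Egr2 (2.62) and Egr3 were covered, a share near the 12.3% of all promoters, while Egr1 had -2.49. Among 26 Polycomb components, Cbx8 (1.95) and Cbx2 (1.05), both readers of the mark, were covered (1 to 3 under the alternatives tried for the lists, and no more than the share of all promoters) and 15 lay below input, against 39.6% of all, including the core subunits Eed (-2.17), Suz12 (-2.25) and Ezh2 (-1.79). Uhrf1, a maintenance factor of DNA methylation, was covered at 1.90 as 1 of 8 in its list, which is the share of all promoters.

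At the other end stood genes that every cell uses. All 12 housekeeping promoters lay below input, with a median of -2.22, from Pgk1 (-1.08) to Sdha (-2.77). So did 35 of 36 genes of respiratory chain complex I, 65 of 82 ribosomal protein genes, 31 of 39 proteasome genes and 37 of 58 replication-dependent histone genes, against 39.6% of all promoters. Of the ribosomal, complex I, histone and housekeeping genes none was covered in limma or edgeR. With centring 2 histone genes were covered, and 1 without animal 1 or animal 2, and 2 histone genes were higher than input at an unadjusted p under 0.05. Actb stood at 0.189, 0.210 and 0.0992 RPM of H3K27me3 against 0.442, 0.857 and 0.984 RPM of input. Leaving out symbols of the Gm and Rik kind, some of which lay as low, the 5 lowest promoters were Btbd6, Leap2, Pmf1, Wdr26 and Bcas3, each with 3 or fewer H3K27me3 reads per tile summed over the animals. Btbd6 had 0.0315, 0 and 0 RPM against an input of 0.952, 0.996 and 1.0 RPM.

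Covered promoters belonged to genes of low RNA level, though not of the lowest. Genes with a covered promoter had a median of -2.63 log2 RPKM and the others of -0.22, a gap of -2.41. The others were of 2 kinds, since promoters below input had a median of 1.72 and promoters in neither class one of -3.39, lower than the covered ones. The gap was between -2.19 and -2.41 in each of the 5 RNA-seq libraries taken singly (SD 0.088). The share of covered promoters was 15.7% under 0.1 RPKM, 19.7% from 0.1 to 1, 6.92% from 1 to 10, 3.78% from 10 to 100, and 3 of 65 promoters (4.62%) at 100 and over. The share below input rose from 9.37% under 0.1 RPKM to 70.1% between 10 and 100. The mark was thus most frequent at genes of little RNA rather than at those of least RNA, and 5941 genes (24.0%) without a read in any of the 5 libraries included 627 (20.6%) of the covered ones.

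The sign of the gap changed with the filter. With promoters kept at a mean of 0.5 RPM in place of 0.2, 8038 promoters dropped out, of which 6958 (86.6%) lay below input and whose median RNA level was 1.71. The others then had a median of -2.85 and the gap turned to 0.23. Under this filter 17.2% of promoters under 0.1 RPKM, 24.9% from 0.1 to 1, 14.6% from 1 to 10 and 9.06% at 10 and over were covered. The filter uses the H3K27me3 values themselves, and a promoter without the mark has a lower mean.

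**Figure D4:**
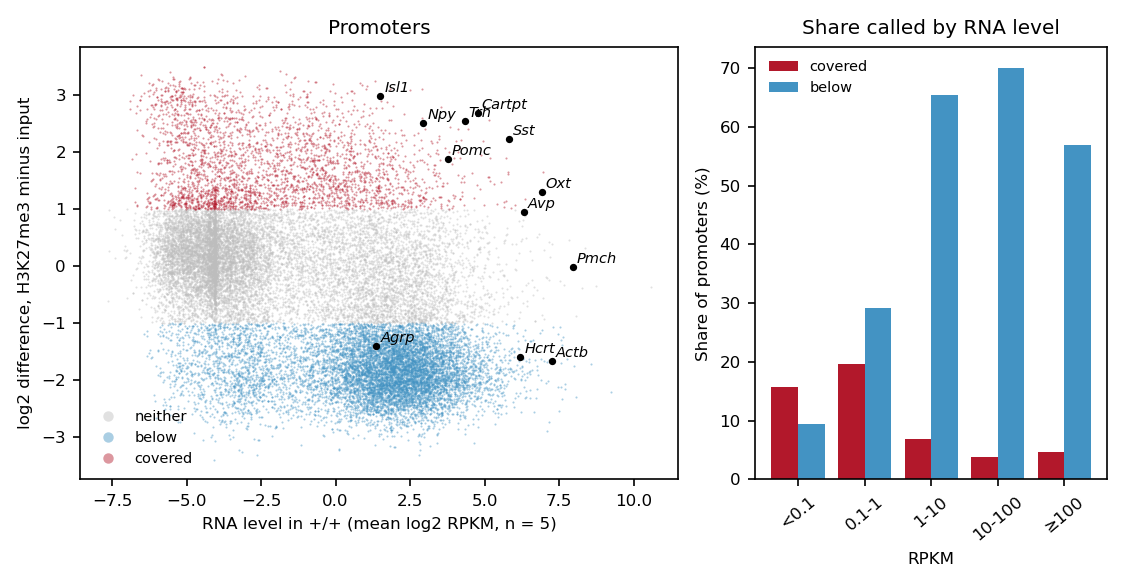
Left, log2 difference between H3K27me3 and input (vertical axis) against mean log2 RPKM in 5 +/+ animals (horizontal axis) for each promoter, covered in red, below input in blue and neither in grey, with 12 named genes. Right, share of promoters covered (red) and below input (blue) by RNA level in RPKM; covered promoters peak at 19.7% between 0.1 and 1 RPKM, while those below input reach 70.1% between 10 and 100.

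At 10 RPKM or more, 88 genes had a covered promoter whose H3K27me3 and input values did not overlap, and 81 of them also carried H3K4me3, as did 96.0% of all promoters from 10 to 100 RPKM and 92.3% at 100 and over. Tmem130 and Resp18, both of neuroendocrine cells, had the highest RNA levels (each 6.95), with 2.64, 2.07 and 2.38 RPM at Tmem130 and 1.89, 1.56 and 1.81 RPM at Resp18. Oxt, Meg3, Snap25, Sst, Nefl, Gnas, Rasgrf1 and Calb2 followed. Meg3 and Gnas are imprinted, Calb2 encodes calretinin of a class of neurons, and Rasgrf1 (1.88) encodes a neuronal exchange factor. Resp18, Calb2, Meg3 and Snap25 fell under the threshold of size with a pseudocount of 0.5 RPM (0.98, 0.90, 0.79 and 0.76) or with a promoter of 2500 bp to each side (0.89, 0.85, 0.77 and 0.67). Snap25 also did so without animal 1 (0.78) and Meg3 without animal 2 (0.98) or 3 (0.96).

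H3K4me3 from the same animals divided the covered promoters. It lay above input at 1824 of 3046 (59.9%), close to the background of 58.4% of all promoters. Covered promoters with H3K4me3 had a median RNA level of -0.89 log2 RPKM and a median CpG observed-to-expected ratio of 0.515, and the 1222 without it -4.22 and 0.284. The share with H3K4me3 was 58.7% at a difference of 1 to 2, 65.4% at 2 to 3 and 35.8% in the 120 promoters at 3 or more. By CpG content, covered promoters were most frequent between 0.4 and 0.6 of the expected CpG number (17.8%) and rarer under 0.2 (6.48%) and between 0.8 and 1.0 (7.29%). H3K36me3, a mark of transcribed gene bodies, lay above input in the bodies of 17 of 2877 covered genes (0.591%), against 16.5% of all, and the 17 became 2 with a pseudocount of 0.5 RPM and 163 with centring. Both comparisons use the input libraries that the H3K27me3 comparison uses. Nefl, Tmem130 and Resp18 were among the 17.

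The profile around the start is a description, since the classes were chosen by the tiles at the start, which favours an extreme there. The mean log2 difference was 1.90 at the start for covered promoters with H3K4me3 and 1.84 for those without it. At 20 kb upstream it was 0.03 and 0.35. Hox genes stood at 2.93 at the start and 2.91 at 20 kb upstream, where the neighbouring genes of the cluster lie. Promoters below input stood at -1.91 at the start, and at -1.0 at 20 kb upstream against -1.45 at 20 kb downstream.

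**Figure D5:**
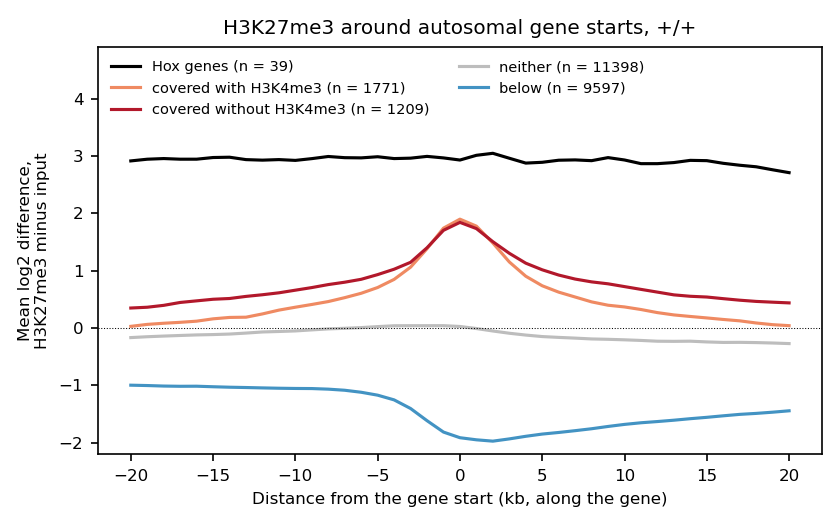
Mean log2 difference between H3K27me3 and input (vertical axis) in tiles by distance from the gene start in kb along the gene (horizontal axis) for autosomal genes of 5 classes. Hox genes are flat near 2.9, covered promoters peak at about 1.9 at the start, and promoters below input are lowest at and just after it.

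The same measure in 3 Δ/D329A animals, in which the maternal Dnmt3a allele lacks exon 18 and the paternal allele carries the D329A change of the PWWP domain, gave a similar map. There 3329 of 24772 promoters (13.4%) were covered, and 2666 were covered in both genotypes, which is 87.5% of the +/+ list and 80.1% of the Δ/D329A list. A test of the difference itself (limma, interaction of genotype and library) called 80 of 24799 promoters, 25 lower (0.101%) and 55 higher (0.222%) in Δ/D329A, with 2019 at an unadjusted p under 0.05. Of the promoters covered in +/+, 21 were lower in Δ/D329A and 1 was higher, Frzb, a Wnt antagonist (1.37). These promoters were selected for a high value in +/+, which favours a fall in the other genotype, so the split of 21 to 1 is no sign of a direction. Zp3 and Srcrb4d are among the 21. The number of calls moved with single animals, with 39 without +/+ animal 2, 20 without Δ/D329A animal 1 and 18 without Δ/D329A animal 3.

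Hoxa7 was called in 5 of the 6 fits that leave out an animal. Its H3K27me3 values were 4.66, 4.77 and 4.46 RPM in +/+ and 1.18, 1.60 and 1.55 RPM in Δ/D329A, against inputs between 0.544 and 0.986 RPM, a difference between genotypes of -1.60 (adjusted p = 4.8e-04, limma). Onecut2, a factor of neurons and liver (-1.70), and Sfmbt2, itself a Polycomb protein (-1.49), were likewise called in 5 of 6 and were picked after their values were seen. The H3K27me3 values of the genotypes did not overlap at any of the 3 genes, which were called by a test on these same values. How often this holds over all promoters was not counted. The smallest adjusted p belonged to a rise at a promoter not covered in +/+, that of Txnip, a regulator of glucose uptake and redox state (2.36, adjusted p = 8.8e-07, limma). Among the 55 higher promoters, which were 0.222% of all tested, were 10 of the Hist1 cluster, with Hist1h2ae at 2.71. These genes too were picked after their values were seen. How far their calls depend on single animals is not given here, though the total number of calls did depend on them.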

How the data were processed

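Signal per tile was deposited by the authors as reads per 1000000 uniquely mapped reads in overlapping tiles of 2000 bp set every 1000 bp. Per the labels, reads were trimmed with Trim Galore 0.4.3 and aligned to GRCm38 with Bowtie2 2.3.2. The study's methods name another version of Trim Galore and the aligner Bowtie in place of Bowtie2, and which was used is not settled. Every deposited value stood within 0.01 of a whole number of reads. Log2 RPKM values per gene were deposited by the authors, and genes without a read stand at a floor.

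A promoter's value was the mean of the tiles from 1500 bp before to 500 bp after the 1 start given per gene. Promoters and tiles with a mean of at least 0.2 RPM were fitted on log2(RPM + 0.1) with limma 3.58.1 (R 4.3.3), the animal being a block, and p-values were adjusted over all features by Benjamini and Hochberg. A call needed an adjusted p under 0.05 and a difference of at least 1. The pseudocount makes differences of low values smaller. Each animal's chromatin gave all of its libraries per the study's reporting summary, which is where the pairing comes from. That the same number means the same animal was assumed, since the labels do not state it. Residuals of same-numbered H3K27me3 and input promoters correlated at 0.019, 0.030 and 0.023. Adjoining covered tiles were joined into domains.

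Named genes were those with the 10 largest differences and the 10 highest RNA levels among covered promoters without overlap, genes in the 10 widest domains, the 5 lowest promoters, the extremes of 56 lists, Actb and Gapdh, passing over symbols of the Gm and Rik kind. Members and lists were chosen with earlier results of these data known. edgeR 4.0.16 and DESeq2 1.42.0 on the recovered reads, other pseudocounts, filters, scalings and windows, and leaving out animals served as alternatives. The scripts were tested on simulated data. With 3 animals the p-values measure the spread between these animals. Some members of the lists are counted but not reported by name here.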

Additional observations from a re-analysis of the deposited data

Results flagged for a closer look

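The difference between H3K27me3 and input itself differed between +/+ and Δ/D329A at 80 promoters (limma, interaction term, adjusted p under 0.05, n = 3 animals each). Among the named genes these were Hoxa7 (-1.60 in Δ/D329A against +/+, adjusted p = 4.8e-04), Pou4f1 (-1.24, 0.011), Cbx8 (-1.24, 0.049) and Hlx (-1.04, 0.034).

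At Pou4f1, a factor of sensory and habenular neurons, H3K27me3 stood at 6.17, 5.40 and 6.47 RPM in +/+ and at 2.22, 4.47 and 2.13 RPM in Δ/D329A, and the call held in 3 of the 6 fits that leave out an animal. At Cbx8 the values were 2.55, 2.52 and 3.40 RPM against 0.908, 1.7 and 1.5 RPM, and the call held in 1 of the 6. The Cbx8 call was also lost with a filter at a mean of 0.5 RPM and with centring. At Hlx the H3K27me3 values were 6.83, 5.94 and 7.29 RPM against 4.91, 5.50 and 4.98 RPM, and the call held in 2 of the 6. The H3K27me3 values of the genotypes did not overlap at Pou4f1, Cbx8 or Hlx, which were called by a test on these same values. At Hlx the input did not overlap either, at 0.6119, 0.6488 and 0.4395 RPM in +/+ and 0.7779, 0.9082 and 1.198 RPM in Δ/D329A. The difference of -1.04 at Hlx therefore holds a higher input in Δ/D329A as well as a lower H3K27me3. At Pou4f1 and Cbx8 the input values of the genotypes overlapped.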

How the results depend on the processing

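Leaving out 1 animal gave 3040 to 3275 covered promoters, 9661 to 9916 below input, 92871 to 109839 covered tiles, 17102 to 20466 domains, 1785 to 1924 covered promoters with H3K4me3, 19 to 22 covered genes with H3K36me3, 3229 to 3540 covered promoters in Δ/D329A and 18 to 85 promoters that differed by genotype. Without the replicate block, which ignores the pairing by animal, 3043 promoters were covered, and the block changed no call of a named gene. A pseudocount of 0.5 RPM gave 3801 promoters below input, 41516 tiles, 7036 domains and 2 genes with H3K36me3. Centring on the median tile gave 215433 tiles, 37364 domains, 2961 covered promoters with H3K4me3, 163 genes with H3K36me3 and 5195 covered promoters in Δ/D329A. TMM factors gave 5239 covered promoters. A difference of at least 2 gave 1059 covered, 3608 below, 11458 tiles and 1697 domains, and no limit on the difference gave 5632 covered. A filter at 0.5 RPM left 2859 below input.

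The RNA gap of -2.41 was -2.16 with a pseudocount of 0.5 RPM, -3.10 with centring, -2.47 to -2.57 without 1 ChIP animal and -2.37 to -2.46 without 1 RNA-seq library, the last chosen after seeing the data. It reversed to 0.23 with the filter at 0.5 RPM, which removes promoters below input. Of the 183 named genes, none with a call changed sign under an alternative, and changes of sign without a call were not counted. With a pseudocount of 0.5 RPM 21 of them lost their call. The filter at 0.5 RPM kept 154 of them. Depth limits the low end, where the 5 lowest named promoters held 3 or fewer H3K27me3 reads per tile.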

Other observations

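The input itself differed between animals at 12 tiles in 3 regions, by at least 5-fold. Over 8 tiles on chromosome 5 (chr5:135972001-135981000), which hold the starts of Zp3, the gene of an egg coat protein, and Srcrb4d, the mean input was 15.0, 14.8 and 0.842 RPM in +/+ animals 1 to 3. In Δ/D329A animals 1 to 3 it was 22.4, 0.923 and 1.08 RPM. H3K27me3 over the same tiles stood at 53.4, 54.2 and 0.725 RPM in +/+ and at 75.5, 0.549 and 0.806 RPM in Δ/D329A, so that the same 3 animals stood apart in both kinds of library.

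Over 3 tiles on chromosome 8 (chr8:94178001-94182000) at Mt1, the gene of a metal-binding protein, the same 3 animals were high, with an input of 6.05, 6.60 and 0.544 RPM in +/+. A single tile on the X chromosome had an input of 0.0680, 1.76 and 1.88 RPM in +/+ animals 1 to 3 and held no gene start. The study's cross used mothers with a Zp3-Cre transgene, and whether it is present in these animals was not tested. Srcrb4d and Mt1 lost their call without animal 1 or animal 2, and Zp3 kept it at 1.08 and 1.03.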
